A study of Mus musculus with 15 samples.

Results

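Within 15 RNA-Seq libraries of cultured mouse heart cells, 4 libraries (S2, S8, S13 and S14) were taken as a set. This set was compared with the 5 libraries in which interferon-stimulated genes were highest (S1, S3, S5, S9 and S10). Both sets were chosen by their position on the first 2 principal components of all genes. The 4 intermediate libraries lay in the middle of the first component and low on the second, so every difference in expression between the sets is a description of how they were selected, given with no p-value. Of the 15 libraries, 6 belonged to neither set (S6, S7, S11, S12, S15 and S16). They are named the other 6 libraries here.

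The study asked how low-dose cilengitide (ldCil, 20 nM), a cyclic peptide that binds αvβ3 integrin, acts on cardiomyocytes stimulated with angiotensin II (AngII, 1 µM), a hormone that makes these cells enlarge. Cells came from whole hearts of wild-type C57/BL6 pups aged 1 to 3 days. All libraries, controls included, came from cells grown for 5 days, serum-starved for 24 h in 0.5% FBS and then treated, with harvest on day 8. RNA was captured by its poly(A) tail and sequenced on an Illumina platform. The sets cross the treatments. The intermediate set held 1 saline-treated control library (S2), 1 AngII library (S8) and 2 AngII + ldCil libraries (S13 and S14). The high-interferon set held 2 control libraries (S1 and S3), 1 AngII library (S5) and 2 ldCil libraries (S9 and S10). The other 6 libraries were AngII (S6 and S7), ldCil (S11 and S12) and AngII + ldCil (S15 and S16), with no control library. S15 and S16 thus share the treatment of S13 and S14. No library of the high-interferon set had received both agents and no intermediate library had received ldCil alone, so set and treatment are partly confounded and cannot be told apart for S13 and S14. Sources do not state whether libraries came from separate cultures, and the spread between them may be technical.

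Interferons are secreted proteins that signal through receptor-bound kinases and switch on a large block of antiviral genes, together with the machinery that presents peptides on major histocompatibility complex (MHC) class I. Inflammatory cytokines of the interleukin-1 family act largely through NF-κB, which drives chemokines and acute-phase proteins. Cultures from whole neonatal hearts hold fibroblasts, smooth muscle cells and macrophages beside cardiomyocytes, and in RNA of a mixed culture fewer cells of a type and less RNA per cell cannot be told apart.

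Each value is a log2 RPKM, the base 2 logarithm of a read count scaled to the length of the transcript and the size of the library. The authors had also applied conditional quantile normalisation, which corrects for transcript length and base composition and gives the libraries a similar spread of values. A value of 0 is 1 RPKM, and a difference of 1 is a factor of 2. Read counts were not used here, and sequencing depth is unknown. In total 12848 of the 14337 genes listed had a mean of at least 0 over the 15 libraries and were compared. A gene that was low elsewhere could pass through its values in the high-interferon libraries alone. For such genes a lower level in the intermediate libraries was partly fixed by this filter. Counts on gene lists cover only the members that passed. The libraries differed at the low end of the scale: between 106 and 250 genes were listed below -3 in the high-interferon libraries, 0 to 97 in the intermediate ones and 0 to 13 in the other 6, so differences of genes near or below 0 are less certain. At the high end, libraries shared the same few values. S5 and S16 stood apart on principal component 3, with scores of 18.0 and 48.2. For the cardiomyocyte label, 1 marker is given: Myh6, the main cardiac myosin heavy chain of the adult mouse. It was 11.24 ± 0.18 (SD, n = 4) in the intermediate and 11.26 ± 0.14 (SD, n = 5) in the high-interferon libraries. Myh6 lies at the high end where values are shared, so it shows a high level and cannot compare the sets. None of the 12 lymphocyte and 10 red blood cell markers reached the level needed for comparison.

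The first component held 49.0% of the variance and the second 11.4%. On the first, S2 scored 14.03, S8 -9.92, S13 4.44 and S14 5.12, against 37.3 to 47.9 in the high-interferon libraries. On the second, S2 scored -20.1, S8 -26.1, S13 -25.6 and S14 -23.5, against 6.29 to 15.4. The nearest library outside the set was S15 at -6.95 on the second component, and it scored -42.0 on the first. S16 was the nearest to the set on the first component, at -24.7, and it scored 4.83 on the second.

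**Figure D1:**
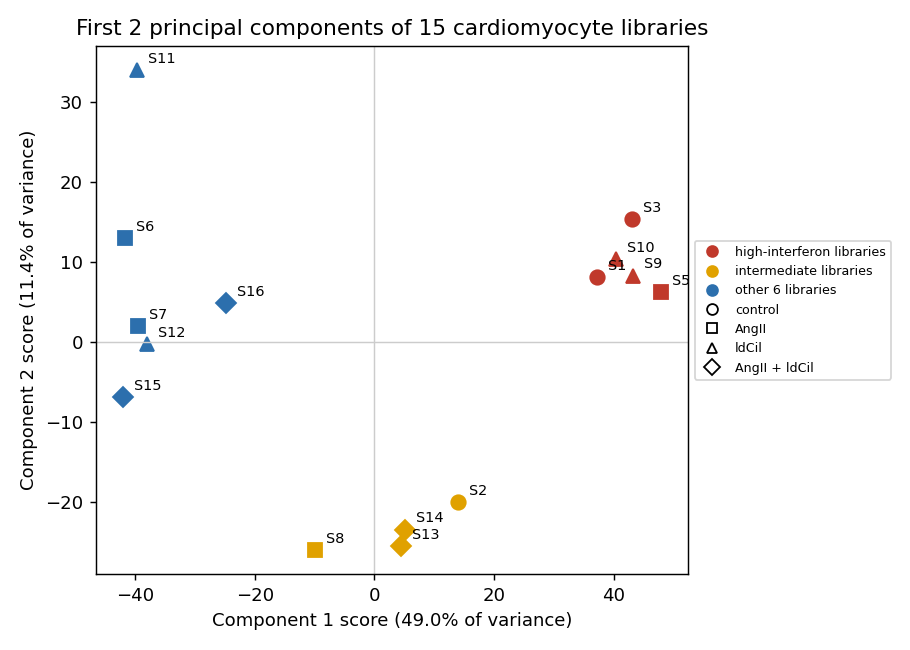
Scores of the 15 libraries on component 1 (horizontal, 49.0% of variance) and component 2 (vertical, 11.4%), with colour for the library set and shape for the treatment. The 4 intermediate libraries lie lowest on component 2, from -26.1 to -20.1, and between the other sets on component 1.

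The 4 intermediate libraries were not equally alike. S13 and S14, which share their treatment, had the highest correlation of values over the genes compared, with Pearson's r of 0.992, and S2 and S8 the lowest, at 0.976. Intermediate and high-interferon libraries correlated at 0.922 to 0.977. The highest of these was S2 with S1, so S2 was as close to S1 as to S8. With each gene centred on its mean over the 15 libraries, r was 0.13 for S2 and S8 and 0.63 for S13 and S14. These are correlations across genes within a pair of libraries, and genes are not independent replicates.

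Sequences upstream of 4 genes are shown because, of 12 genes looked at, they hold a match to a motif searched that fits their group, a choice made after the matches were seen: Isg15 and Ifit1 are antiviral genes, and Cxcl3 and Acod1 belong to the 12 genes with the largest lower differences. Each run is the 150 bases before the start of the gene in RefSeq on GRCm38.p6, written 5′ to 3′ on the gene's strand. Capitals mark matches to GAAANNGAA, the core of the interferon-stimulated response element, or to GGANTTTCC, a form of the NF-κB motif, searched on both strands, with overlapping matches joined.
Isg15, chr4:156200819-156200968, minus strand: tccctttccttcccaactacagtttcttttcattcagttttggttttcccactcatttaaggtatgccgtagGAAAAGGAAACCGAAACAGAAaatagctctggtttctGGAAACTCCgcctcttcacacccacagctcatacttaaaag
Ifit1, chr19:34640739-34640888, plus strand: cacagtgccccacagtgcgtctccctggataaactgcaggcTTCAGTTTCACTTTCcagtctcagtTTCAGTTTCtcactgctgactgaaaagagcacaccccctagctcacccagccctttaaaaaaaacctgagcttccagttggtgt
Cxcl3, chr5:90785951-90786100, plus strand: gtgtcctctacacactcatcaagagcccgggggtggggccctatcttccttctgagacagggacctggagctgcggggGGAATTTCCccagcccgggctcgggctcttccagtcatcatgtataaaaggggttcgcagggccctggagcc
Acod1, chr14:103046862-103047011, plus strand: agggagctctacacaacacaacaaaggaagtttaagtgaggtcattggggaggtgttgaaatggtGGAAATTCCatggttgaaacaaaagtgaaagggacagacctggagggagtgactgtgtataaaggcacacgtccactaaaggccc
Isg15 held 3 overlapping matches to the first motif and 1 to the second, and Ifit1 held 3 matches to the first. Cxcl3 and Acod1 held 1 match each to the second. Saa3 held 1 match to the first, and Il1b, Il1a, Lcn2, Clec4e, Irf7, Cxcr4 and Mrc1 held none to either. In windows of 300 bases (250 before and 50 after the start) of 27025 RefSeq genes, 9.76% held the first motif and 1.45% the second. Of the 10 interferon-inducible GTPases compared, 8 had a window and 7 of these held the first motif, and of 20 MHC class I genes with a window 5 did. So did 17 of 32 antiviral effectors, 4 of 8 interferon regulators and 12 of 58 cytosolic ribosomal proteins with a window. Among all 9547 genes compared that had a window, the share was 8.46%. No share is given for the chemokine and cytokine list, of which 15 of 21 genes had a window. A match is a run of letters and not evidence of binding.

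Differences between the sets leaned towards lower expression in the intermediate libraries. A gene was counted when the 4 intermediate values did not overlap the 5 high-interferon values and the means differed by at least 1. On this count 282 genes, 2.19% of those compared, were lower in the intermediate libraries and 120 genes, 0.934%, were higher. Without the minimum size, 979 genes (7.62%) were lower and 1046 (8.14%) were higher, and the median difference over all genes was 0.03. Without S5 the counts were 304 lower and 150 higher. Of the 282 lower genes, 63 had an intermediate mean below 0, and of the 120 higher genes, 29 had a high-interferon mean below 0. The sizes of these differences are less certain. The lower genes outnumbered the higher ones among large differences and not among small ones. Since the rule used these values, the percentages are the background for the lists described next and nothing more.

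The same genes were set against the other 6 libraries as a description, since the choice of libraries in the middle of the first component already places many of them in between. Among the 282 lower genes, 72 had all 4 intermediate values above the other 6, 199 overlapped them, and 11 had all 4 values below them. For 255 of the 282, whose means in the other 6 and high-interferon libraries differed by at least 1, the intermediate mean lay a median of 72.2% of that distance from the high-interferon mean. Among the 120 higher genes the corresponding median was 86.0% over 62 genes. The position between the sets differed by library: S2 was the highest of the 4 for 169 of the 282 lower genes and S8 the lowest for 174. The median difference from the high-interferon mean over the 282 was -1.41 in S2, -2.14 in S8, -1.70 in S13 and -1.68 in S14. Among the 282, S8 was at or below the highest of the other 6 for 198 genes, and S2 for 105.

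**Figure D2:**
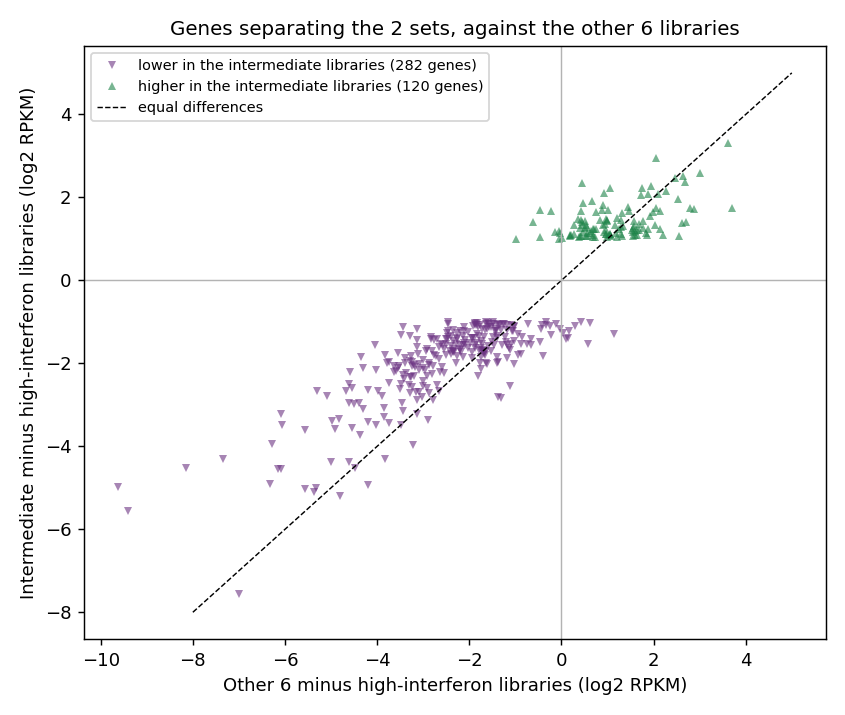
For the 402 genes that separated the sets, the difference of the other 6 from the high-interferon libraries (horizontal, log2 RPKM) against the difference of the intermediate from the high-interferon libraries (vertical, log2 RPKM), with a dashed line of equality. Most of the 282 lower genes lie above the line at the left, where the intermediate libraries differed less than the other 6 did.

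Interferon-stimulated genes formed the largest listed group among the 282 lower genes, with 66 of them in the interferon lists. Of 49 antiviral effector genes listed, 42 were compared. Of these 42, 37 were lower in the intermediate libraries without overlap, 35 of them by at least 1, and none was higher. Their median difference was -2.13, beside 0.03 over all genes. The list mean, with each gene centred on its mean over the 15 libraries, was 0.31 in S2, -0.63 in S8, -0.35 in S13 and -0.43 in S14. It ran from 1.48 to 2.20 in the high-interferon libraries and from -1.52 to -1.21 in the other 6, with each of the 4 libraries in between, as the choice of libraries by the first component favours. Among the members with a distance to compare, the intermediate mean lay a median of 66.3% of the way from the high-interferon to the other libraries. The 5 effectors that overlapped were Ifit2, Ifi27l2a, Dtx3l, Slfn5 and Slfn9.

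Isg15, a ubiquitin-like protein that is attached to target proteins after interferon, was 4.32 in S2, 2.87 in S8, 3.25 in S13 and 3.25 in S14. In the high-interferon libraries it was 6.47 in S1, 7.21 in S3, 6.97 in S5, 7.17 in S9 and 6.78 in S10. All 4 intermediate values lay below these 5 and above the other 6, which ran from 0.56 to 1.51. The means were 3.42 ± 0.62 (SD, n = 4) and 6.92 ± 0.30 (SD, n = 5), an 11.3-fold difference. Ifit1, which binds foreign RNA that lacks the host's cap modification, showed the same order. It was 4.57 in S2, 2.32 in S8, 3.06 in S13 and 2.65 in S14, against 7.10 in S1, 8.04 in S3, 6.90 in S5, 7.77 in S9 and 7.47 in S10, with -0.51 to 0.85 in the other 6. The difference of Ifit1 was -4.31, with no overlap among the 3 sets. Zbp1, a sensor of nucleic acids in the Z form, differed by -4.37 and went further: its intermediate mean of -1.04 ± 0.72 (SD, n = 4) was close to the -1.66 ± 0.58 (SD, n = 6) of the other libraries.

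Regulators of the response followed the effectors. Of 12 regulators, 11 were lower without overlap, with a median difference of -1.76, and the exception was Irf2, at -0.01. Irf7, the transcription factor that amplifies interferon production, was 5.57 in S2, 2.30 in S8, 3.11 in S13 and 3.30 in S14. The 5 high-interferon values were 6.59 in S1, 7.26 in S3, 6.24 in S5, 7.01 in S9 and 6.88 in S10. S2 was thus nearer to the high-interferon libraries than to S8, S13 and S14, and no value overlapped. Usp18, which removes Isg15 from proteins and dampens receptor signalling, differed by -3.95. The list of ligands and receptors, which includes the kinase Jak2, held 16 genes, of which 9 were expressed enough to be compared. Of these, 3 (33.3%) were lower without overlap, beside 7.62% of all genes. The median was -0.10, and the largest differences were those of Jak2 (-0.73) and the receptor chain Ifnar2 (-0.72).

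Interferon-inducible GTPases attack the membranes around intracellular pathogens. Of 15 listed, 10 were expressed enough to be compared, and all 10 were lower without overlap, with a median of -2.22. Iigp1 differed by -3.21 and Gbp3 by -2.95. Members of the Gbp family are close copies, and reads could be shared between them. A further list of nucleic acid sensing and its signalling, which leaves out the sensors Zbp1 and Ifih1 (-2.48) counted with the effectors, was mixed: 4 of 13 genes were lower without overlap, with a median of -0.34. The 4 were Dhx58 (-2.96), Ddx58 (-2.07), Ikbke (-1.81) and Adar (-1.04). Samhd1 (-0.01), which depletes nucleotides, the adaptors Mavs (0.17) and Ticam1 (0.18) and the transcription factor Irf3 (0.19) overlapped.

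Of 23 genes of MHC class I presentation, 15 were lower without overlap and the median was -1.22. H2-K1, a classical class I heavy chain, was 7.57 in S2, 5.70 in S8, 6.29 in S13 and 6.49 in S14, against 8.32 in S1, 8.64 in S3, 7.61 in S5, 8.21 in S9 and 8.25 in S10. Its highest intermediate value, in S2, lay just below its lowest high-interferon value, in S5. B2m, the light chain shared by class I molecules, overlapped: S2 at 8.88 lay above S5 at 8.51, while S8, S13 and S14 lay between 7.21 and 7.76. The general chaperones Calr (-0.17), Pdia3 (0.01) and Canx (0.12) did not separate. Class I heavy chains are near-identical in places, so the values of single H2 genes are uncertain.

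**Figure D3:**
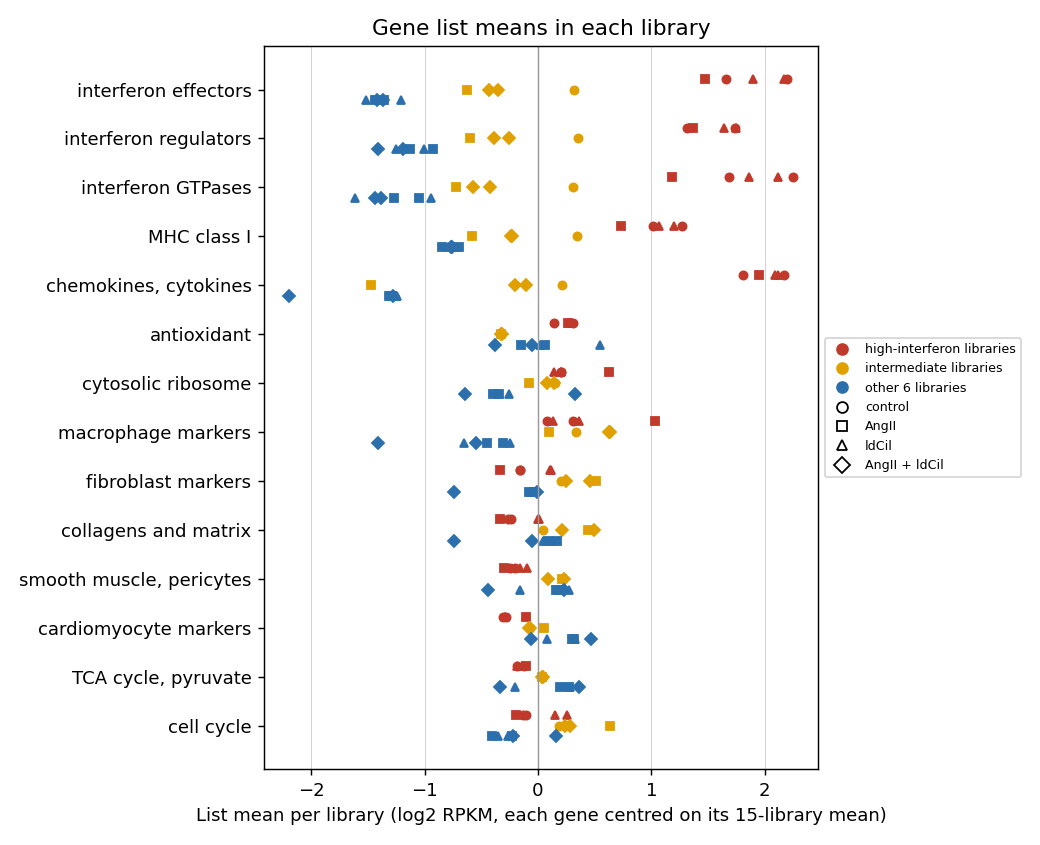
Mean of 14 gene lists in each library (horizontal, log2 RPKM, each gene centred on its mean over 15 libraries), with colour for the library set and shape for the treatment. In the interferon lists the 3 sets do not overlap, but the intermediate libraries are spread out, with S2 the highest of them and S8 the lowest. Chemokines and cytokines place S8 (square, -1.47) with the other 6 libraries, and the antioxidant list puts all 4 intermediate libraries between -0.33 and -0.32.

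The 12 protein-coding genes with the largest lower differences were Il1b, Cxcl5, Serpinb2, Clec4e, H2-M2, Lcn2, Mmp9, Acod1, Cxcl3, Il1a, Saa3 and Hp, with differences from -7.56 to -4.52. None of the 12 is on the interferon effector, regulator or GTPase lists, whose largest differences were those of Zbp1 (-4.37) and Ifit1 (-4.31), and 4 of them (Il1b, Cxcl5, Il1a and Cxcl3) are chemokines or cytokines. The chemokine and cytokine list held 27 genes, of which 21 were compared. Of these, 16 were lower in the intermediate libraries, each by at least 1. The median of -2.12 was close to those of the interferon effectors and GTPases.

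Il1b, the secreted cytokine interleukin-1β, was 0.50 in S2, -2.04 in S8, -2.81 in S13 and -4.06 in S14. In the high-interferon libraries it was 5.27 in S1, 5.62 in S3, 5.75 in S5, 5.13 in S9 and 5.54 in S10. For this gene only S2 lay in between: the other 6 ran from -2.24 to -1.01, S8 lay within that range, and S13 and S14 below it. The lowest value of any gene was -5.11 in S13 and -4.31 in S14, but -3.39 to -2.82 in the other 6. The place of S13 and S14 below the other 6 is therefore uncertain. The difference of -7.56 is a 189-fold one, but values below 0 are less than 1 RPKM and its size is uncertain. Il1a, the other agonist of the same receptor, was 0.70 in S2, -0.43 in S8, 0.21 in S13 and 0.69 in S14, against 4.47 to 5.23 in the high-interferon and -1.59 to -0.96 in the other libraries.

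Cxcl5, Lcn2 and Saa3 set S8 apart from the other 3 intermediate libraries. Cxcl5, a chemokine for neutrophils, was 5.61 in S2, 4.58 in S13 and 4.49 in S14, but -0.71 in S8. It ran from 8.77 to 9.23 in the high-interferon and from -0.96 to -0.12 in the other 6 libraries, so S8 fell in the range of the latter. Lcn2, an iron-scavenging protein of the acute phase, was 5.67 in S2, 3.97 in S13 and 3.57 in S14, and -1.01 in S8. Saa3, serum amyloid A made outside the liver, was 5.35 in S2, 4.04 in S13 and 4.13 in S14, and -0.92 in S8. The high-interferon values were 7.01 to 8.67 for Lcn2 and 7.21 to 8.20 for Saa3. The chemokine and cytokine list as a whole did the same: its mean was 0.22 in S2, -0.10 in S13, -0.21 in S14 and -1.47 in S8, with the other 6 between -2.19 and -1.24. On the interferon effector list S8, at -0.63, lay above all of the other 6.

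Another pattern was a low level in all 4 intermediate libraries. Clec4e, a macrophage receptor for mycobacterial glycolipid, was 0.59 in S2, -1.17 in S8, -0.96 in S13 and -1.06 in S14, against 4.08 to 4.82 in the high-interferon and -1.84 to -0.69 in the other 6 libraries. Mmp9, a matrix-degrading protease, was -1.17 in S2, -2.24 in S8, -2.24 in S13 and -1.40 in S14, against 2.94 to 3.42 and -1.50 to 0.05. Hp, the haemoglobin-binding protein haptoglobin, was between -1.59 and -1.01 in the 4 libraries and between 2.75 and 3.67 in the high-interferon ones. The 4 libraries lay within the range of the other 6 for Hp, Clec4e in S2 lay above that range, and Mmp9 in S8 and S13 lay below it. Less uniform was Acod1, the enzyme that makes itaconate in activated macrophages, which differed by -4.91. It was 1.17 in S2, -0.63 in S8 and -0.16 in S13, above the other 6 (-2.64 to -0.69), and -1.11 in S14, within their range. Serpinb2, an inhibitor of plasminogen activators, differed by -5.19. Its value in S2, 2.40, lay above the other 6 (-0.15 to 1.36), while S8 at -1.50 and S13 at -0.23 lay below them. Values under 1 RPKM, as for Mmp9 and Serpinb2 here, make an order below the other 6 uncertain.

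**Figure D4:**
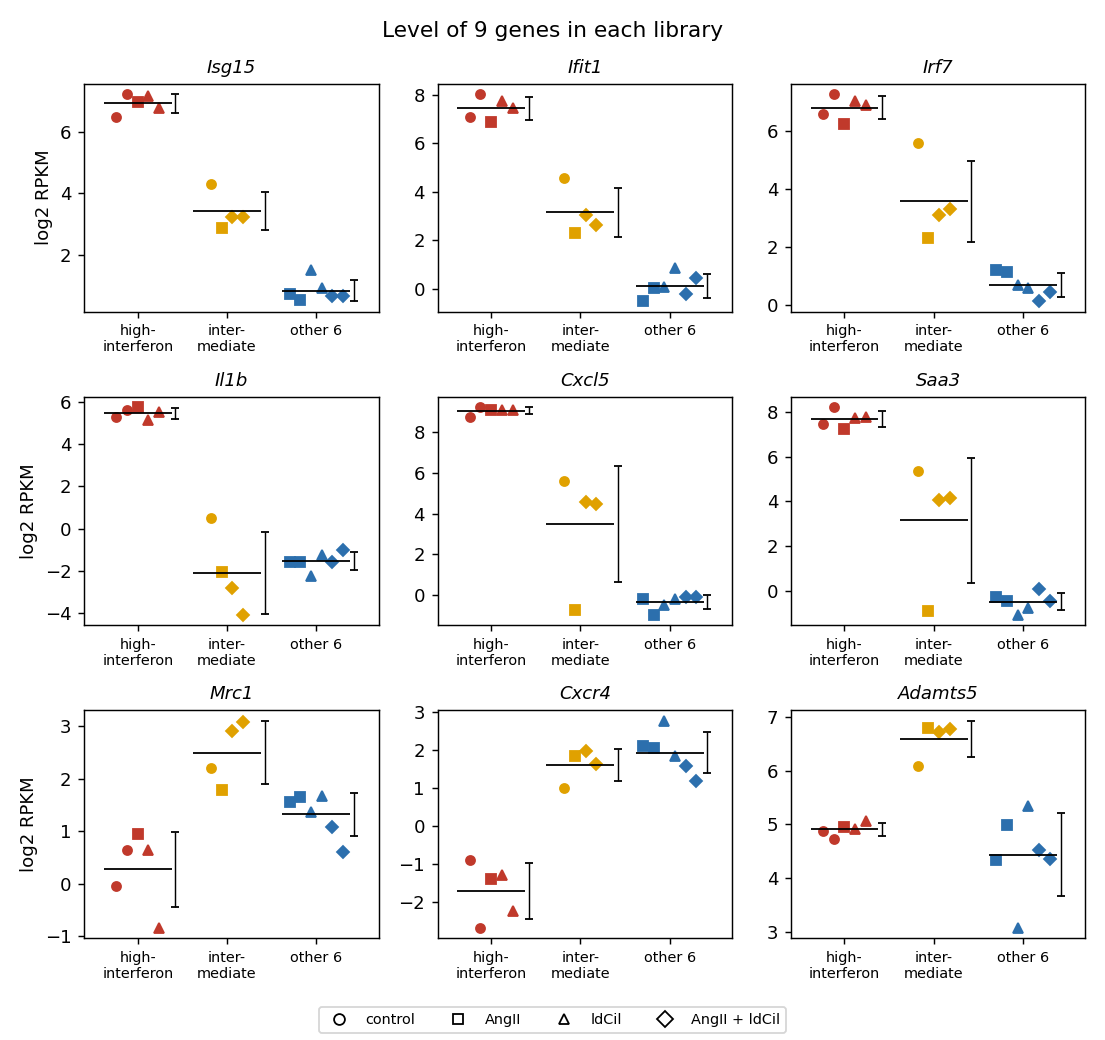
Level of 9 genes (vertical, log2 RPKM) in each library by set, with shape for the treatment, a line at each set's mean and a bar of 1 SD beside it. Isg15 and Ifit1 form 3 separate levels, S8 (square) falls to the other 6 for Cxcl5 and Saa3, and Mrc1 and Adamts5 are highest in the intermediate libraries.

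Macrophage genes separated in both directions. Of 17 markers, 5 were higher in the intermediate libraries without overlap and 4 were lower, with a median difference of 0.03. The list mean was 0.10 to 0.64 in the intermediate and 0.08 to 1.03 in the high-interferon libraries, which overlap, and -1.41 to -0.25 in the other 6. The 5 higher markers, Mrc1, C1qa, C1qb, C1qc and Laptm5, were higher in all 4 intermediate libraries than in each of the 11 others. C1qc, a chain of the complement protein that starts the classical pathway, was 3.09 in S2, 3.57 in S8, 3.34 in S13 and 3.23 in S14. It was 0.45 to 2.32 in the high-interferon and 1.03 to 2.65 in the other 6 libraries. Its mean of 3.31 ± 0.20 (SD, n = 4) was 4.32-fold above that of the high-interferon set. Mrc1, the mannose receptor of resident and alternatively activated macrophages, was 2.20 in S2, 1.79 in S8, 2.91 in S13 and 3.08 in S14, against -0.84 to 0.95 and 0.61 to 1.66.

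The 4 lower macrophage markers were Cd14, Adgre1, Cybb and Csf1r. Cd14, the co-receptor for bacterial lipopolysaccharide, was 2.62 in S2, 0.39 in S8, 1.82 in S13 and 1.22 in S14, against 4.80 to 5.23 in the high-interferon and 0.86 to 2.03 in the other 6 libraries. Adgre1, which encodes the F4/80 antigen, was 3.10 in S2, 2.01 in S8, 3.30 in S13 and 3.37 in S14, and lay between 4.43 to 5.57 in the high-interferon and 0.52 to 1.35 in the other libraries. General macrophage genes did not separate: Cd68, a lysosomal glycoprotein, differed by 0.03 and Mpeg1, which encodes a pore-forming protein, by -0.06. Lyz2, lysozyme, differed by 0.55 with overlapping values. Whether the numbers of macrophages differed between the sets was not tested. Cxcr4, the receptor of the chemokine Cxcl12, had the largest higher difference of any named gene, at 3.31. It was 1.01 in S2, 1.84 in S8, 1.97 in S13 and 1.63 in S14, against -2.67 to -0.88 in the high-interferon libraries, and it overlapped the other 6, which ran from 1.18 to 2.77. All its high-interferon values were under 1 RPKM, which makes the size of the difference uncertain. Atp6v0d2, a proton-pump subunit of macrophages and osteoclasts, differed by 2.96. Its high-interferon values ran from -2.24 to 1.37, so the size is uncertain, and S8 was only 0.41 above S5.

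Genes in which the 4 intermediate libraries lay outside all 11 others were 131 on the high side, 1.02% of those compared, and 48 on the low side, 0.374%. Adamts5, a protease that cleaves aggrecan, was 6.09 in S2, 6.79 in S8, 6.73 in S13 and 6.77 in S14. It was 4.72 to 5.06 in the high-interferon and 3.07 to 5.35 in the other 6 libraries. Ccn5, a matricellular protein that restrains fibrosis, ran from 6.11 to 6.68 in the 4 libraries, above 4.72 to 5.23 and 2.87 to 5.18. Both genes were highest in S8 and lowest in S2 among the 4. The cytoskeletal genes Map2, which stabilises microtubules, and Tubb3, a neuronal β-tubulin, differed from the high-interferon set by 2.35 and 1.00, and both lay above all 11 others. On the low side, Usp43, a ubiquitin protease, ran from -0.71 to -0.02 against 0.20 to 1.83 in the 11 others. Values this near 1 RPKM make the size of that difference uncertain.

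Matrix and fibroblast genes were higher in the intermediate libraries as groups, with exceptions in each. Of 27 collagen and matrix genes, 11 were higher without overlap and 3 lower, with a median of 0.47. Of 17 fibroblast markers, 9 were higher and 1 lower, with a median of 0.43. Col6a3, a chain of the pericellular collagen VI, was 3.37 in S2, 5.10 in S8, 4.86 in S13 and 3.996 in S14, against 1.48 to 2.44. Eln, elastin, was 4.67 in S2, 7.42 in S8, 6.28 in S13 and 5.63 in S14, against 4.04 to 4.49 in the high-interferon and 7.15 to 8.39 in the other 6 libraries, so that S2 lay near the first and S8 within the second. Mgp, an inhibitor of calcification, differed by 1.97. The most abundant members overlapped: Col1a1, the main chain of collagen I, differed by 0.16 and Sparc by 0.05. Dcn, the proteoglycan decorin, went the other way, with 7.20 in S2, 6.34 in S8, 6.75 in S13 and 6.49 in S14, against 8.03 to 8.92, and it was lower still in the other 6, from 3.53 to 5.54. Tnc (-0.98) and Col18a1 (-0.48) were the other lower matrix genes.

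Of 13 smooth muscle and pericyte markers, 6 were higher without overlap and none was lower, with a median of 0.29 (0.17 without S5) and Lmod1, an actin nucleator, at 1.07. Acta2, smooth muscle actin, differed by 0.13. Endothelial markers differed by a median of 0.03, with 2 of 13 higher, Flt1 and Ptprb. Epicardial markers gave 4 higher and 2 lower of 10, led by Upk3b at 2.27 and Aldh1a2 at -1.42, the enzyme that makes retinoic acid. Among 5 Schwann cell and neuronal markers, 2 were higher and 1 lower. Of 9 integrin subunits that bind the RGD motif, Itga8 (2.53) and Itgb8 (1.23) were higher and the other 7 overlapped, with a list median of 0.00. Itga8 was 3.96 in S2, 4.96 in S8, 3.83 in S13 and 3.80 in S14, against 0.99 to 1.86. Ptn, a heparin-binding growth factor, and Kcnip2, a subunit of the cardiac transient outward potassium channel, were also among the 12 largest higher differences, at 2.59 and 2.46. Their high-interferon means were -0.38 and 0.07, so both sizes are uncertain.

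Antioxidant genes were lower in the intermediate libraries. Of 21 genes, 14 were lower without overlap and 1, Cat, was higher, with a median of -0.41. The list mean was -0.33 in S2, -0.33 in S8, -0.33 in S13 and -0.32 in S14, against 0.14 to 0.31 in the high-interferon libraries, and the other 6 spread from -0.38 to 0.55. These 4 libraries, unlike each other in chemokines and cytokines, were nearly equal here. Slc7a11, the cystine transporter that feeds glutathione synthesis, was 2.37 in S2, 1.79 in S8, 2.37 in S13 and 2.33 in S14, against 4.19 to 4.62. Gsta3, a glutathione transferase, differed by -2.51. For Hmox1, haem oxygenase 1, the 4 libraries were below all 11 others: they ran from 5.84 to 6.07, the high-interferon libraries from 6.52 to 6.87 and the other 6 from 6.84 to 9.80. Srxn1 and Gclm were also below all 11.

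Heart muscle genes differed little. Of 30 cardiomyocyte markers, 5 were higher in the intermediate libraries and none was lower without overlap, with a median of 0.19. The 5 were Tbx20 (0.91), Tcap (0.50), Ttn (0.45), Ldb3 (0.40) and Cox6a2 (0.23). Tnnt2, cardiac troponin T, differed by -0.35 with touching values at the top of the scale, where libraries share values. Genes of contraction and calcium handling had a median of 0.20 (0.30 without S5), with 3 of 21 higher, and hypertrophy genes a median of 0.13, with 2 of 15 higher. The natriuretic peptides Nppa (-0.13) and Nppb (0.31), markers of wall stress, overlapped. Xirp2, an actin-binding protein of the intercalated disc, was 8.42 in S8 and 5.70 to 6.11 in S2, S13 and S14, with 5.41 to 5.74 in the high-interferon libraries. The other 6 libraries ran from 5.70 in S16 to 8.11 in S11, an ldCil library, so S8 was close to S11.

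Genes of energy metabolism differed by small amounts. Of 22 genes of the TCA cycle and pyruvate oxidation, 10 were higher and 1 lower without overlap, with a median of 0.17. The list mean was 0.04 in each of the 4 intermediate libraries and -0.19 to -0.11 in the high-interferon ones. Idh2, the mitochondrial isocitrate dehydrogenase that makes NADPH, differed by 0.49, and Pdhb, a subunit of pyruvate dehydrogenase, by 0.32. Fatty acid oxidation had 8 of 24 higher and a median of 0.19. Complex I had 2 of 37 higher with a median of 0.08, complexes II to V 5 of 40 with a median of 0.17, and no gene of the 12 encoded by the mitochondrial genome separated. These respiratory lists reached 0.47 and 0.28 in S5, above every other high-interferon library, and without S5 their medians were 0.20 and 0.29.

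Among the remaining groups, 34 of 35 cell cycle genes had a higher mean in the intermediate libraries, beside 55.7% of all genes. Only 4, Ccnd1, Ccnd2, Mcm2 and Rrm1, did not overlap, and the median was 0.34. The list mean was 0.64 in S8 and 0.18 to 0.28 in the other 3. Of 79 cytosolic ribosomal proteins, 12 were lower and none higher, with a median of -0.22, or -0.13 without S5. Targets of p53 had 5 higher and 2 lower of 19 (median 0.19), genes of the PERK and ATF4 stress pathway 1 higher and 4 lower of 29 (median -0.15, or -0.30 without S5), and glycolytic and hypoxia genes 1 higher and 5 lower of 23 (median -0.11). Medians were -0.07 for immediate early genes, 0.10 for the TGF-β and YAP list, 0.12 for cholesterol synthesis, -0.03 for lysosome and autophagy, -0.04 for heat shock and -0.01 for endoplasmic reticulum chaperones. Histone genes had a median of 0.03 and nuclear RNAs of 0.17. Small medians such as these moved with single libraries: that of the nuclear RNAs was 0.061 without S3 and 0.28 without S9.

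Within 1 treatment the sets could be compared without mixing agents, though with 1 or 2 libraries a side and no test. In control cells S2 was set against the mean of S1 and S3, and in AngII cells S8 against S5. Among all genes compared, 376 were lower and 161 higher by at least 1 in S2, and 790 were lower and 886 higher in S8. Of the 282 lower genes, 220 were lower by at least 1 in the control comparison and 254 in the AngII comparison. Of the 120 higher genes, 69 and 98 were higher by at least 1. The median of the interferon effectors was -1.49 in control and -2.08 in AngII cells, and that of the chemokines and cytokines -1.44 and -3.28. For Cxcl5 the gap was -3.39 in control and -9.82 in AngII cells. Some lists took opposite directions: macrophage markers had a median of 0.31 in control and -0.85 in AngII cells, and complex I of 0.17 and -0.50. The AngII side rests on S5 alone. Its list means, 1.03 for macrophage markers and 0.47 for complex I, were the highest of the high-interferon set. A difference between treatments cannot be told apart here from a difference of S5. All directions of the 402 genes agree by construction, since no overlap was allowed. Their counts by size are not independent of the choice either. S1, S2, S3, S5 and S8 were among the libraries whose values picked these genes.

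**Figure D5:**
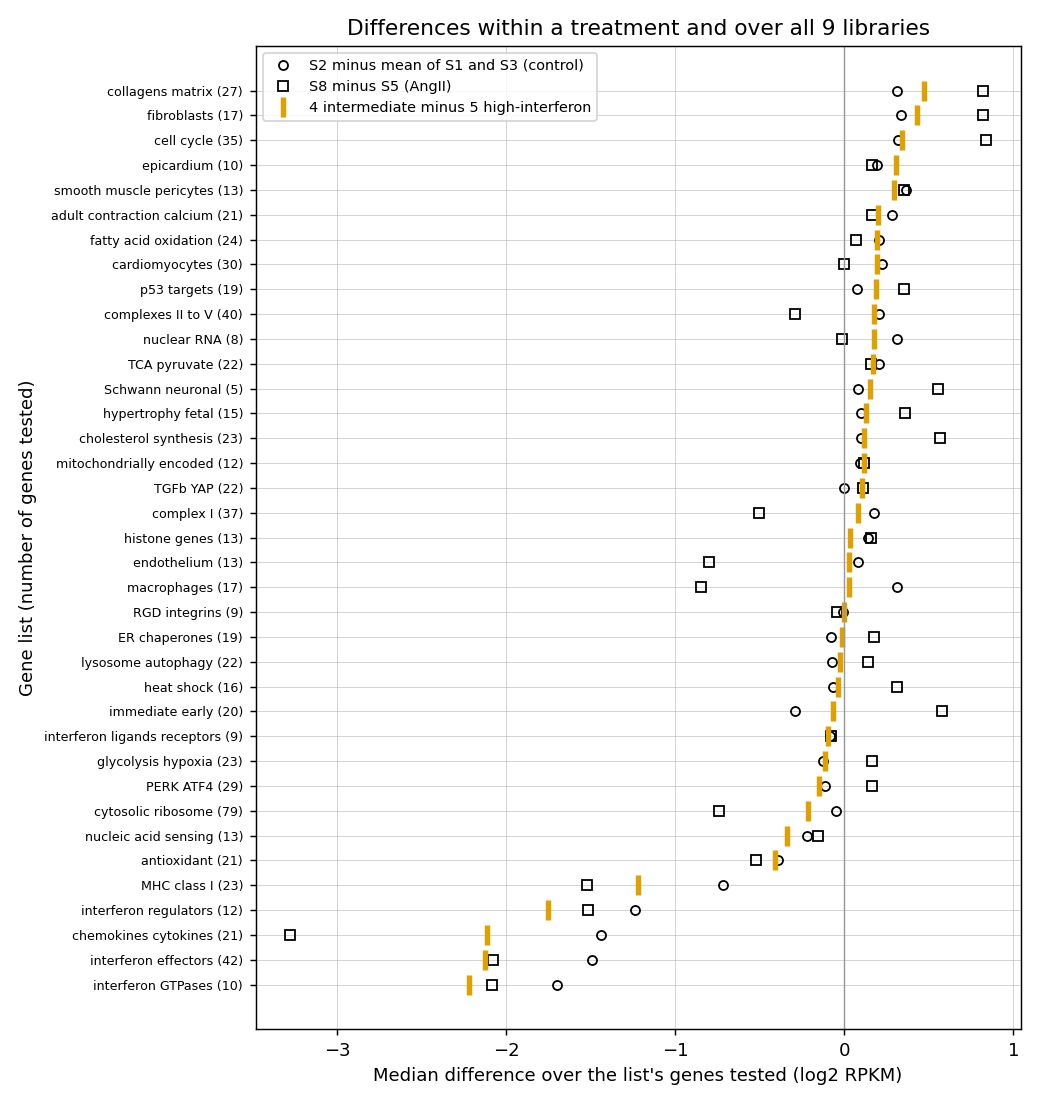
Median difference of each of 37 gene lists (horizontal, log2 RPKM) in control cells (circle, S2 against S1 and S3), AngII cells (square, S8 against S5) and over all 9 libraries (bar). The effectors, regulators, GTPases and chemokines lie left of -1 on all 3 marks, while macrophage markers, complex I and complexes II to V take opposite directions in the 2 treatments. The square rests on S5 alone as the high-interferon side.

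Treatment, which the labels give and the choice of libraries did not use, was tested across all 15 libraries with limma's F test over the 4 treatments. No gene, 0%, passed an adjusted p of 0.05 (Benjamini-Hochberg), and the smallest adjusted p was 0.973. At an unadjusted p of 0.05, 383 genes passed, 2.98% of those compared. Of the 282 lower genes 34 passed at that unadjusted level, and of the 120 higher genes 10 did. The sets are unevenly spread over the treatments, so these counts are not independent of them. H2-K1 had an unadjusted p of 0.0126, B2m 0.0336, Irf7 0.066, Isg15 0.14 and Cxcl5 0.166, each with an adjusted p of 0.973 by limma. With arrayWeights, which weights each library by its spread around its group, 6831 genes passed. That weighting gave S1 a weight of 7.01 and S5 a weight of 0.113. A p that misses the threshold does not show that the treatments acted alike.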

How the data were processed

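RNA-Seq values of 15 libraries were used as deposited by the authors, on a log2 RPKM scale to which they had applied conditional quantile normalisation. The submitters' processing notes name HISAT2 and HTSeq and the GRCm38 (mm10) build. Tool versions, the annotation release and the strand setting are not given here by any source used. Of 14337 gene identifiers, 14329 were found in GENCODE M21.

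Genes with a mean of at least 0 were compared (12848). Components were computed on values centred per gene. Set differences carry no test. Treatments were tested with limma 3.58.1 in R 4.3.3 (moderated F test with a trend, Benjamini-Hochberg), checked on simulated data with 200 changed genes. Other steps used Python 3.11.15.

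Libraries, members and the 39 gene lists were chosen with earlier results of these data known. Genes named are, per direction, the 12 with the largest non-overlapping difference and the 6 farthest outside the 11 other libraries, the 2 leading members of each list, and 10 fixed genes, of which 1 is not reported here. Other list members were named after their values were seen. Alternatives covered filters, an added pseudocount, scaling, length and GC trends, single treatments, size minimum and leaving out each library.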

Additional observations from a re-analysis of the deposited data

Results flagged for a closer look

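Among 162 sets of 4 or 5 values (list means and leading genes in the intermediate and in the high-interferon libraries), 21 had a library far from the rest of its set. Chance gives such a library in about 1 of 20 sets.

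In the high-interferon set the library was S5 in 12 of them. Its list mean was -0.10 for cardiomyocyte markers, -0.078 for contraction and calcium, -0.11 for hypertrophy, 0.47 for complex I, 0.28 for complexes II to V, 0.62 for ribosomal proteins, -0.36 for PERK and ATF4, -0.30 for p53 targets, -0.39 for immediate early genes and -0.14 for TGF-β and YAP, and its levels were 1.70 for Prkg2 and 8.51 for B2m. S1 stood apart for the antioxidant list, at 0.14, and S9 for Nppb, at 9.86.

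In the intermediate set S8 stood apart for cardiomyocyte markers (0.054), hypertrophy genes (0.44) and Itga8 (4.96), S14 for smooth muscle markers (0.086), and S2 for Clec4e (0.59), Adamts5 (6.09) and Tnnt2 (11.08). For Tnnt2, S8, S13 and S14 shared the value 10.85 at the high end of the scale, so that flag rests on tied values.

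In 12 lists S2 differed from both S1 and S3 in one direction and S8 from S5 in the other, which was not tested. With the control value first, the differences in list mean were 0.14 and -0.94 for macrophage markers, 0.17 and -0.54 for complex I, 0.19 and -0.30 for complexes II to V, 0.17 and -0.072 for mitochondrially encoded genes, and 0.21 and -0.027 for fatty acid oxidation. They were -0.24 and 0.20 for PERK and ATF4, -0.074 and 0.18 for endoplasmic reticulum chaperones, -0.061 and 0.25 for heat shock, and -0.10 and 0.17 for glycolysis and hypoxia. Immediate early genes had -0.40 and 0.43, and lysosome and autophagy -0.080 and 0.082. For TGF-β and YAP they were -0.018 and 0.16, though S2 and S3 were nearly equal there, both at -0.023.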

How the results depend on the processing

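The count of genes higher in the intermediate libraries, 120 as reported, was 196 with no filter, 66 with a mean of at least 2, 74 with 1 RPKM added, 387 at a minimum difference of 0.5, 15 at 2 and 886 in AngII libraries alone. The count of genes lower in the intermediate libraries, 282, was 134 with a mean of at least 2, 534 at 0.5, 102 at 2 and 790 in AngII libraries alone. The median difference of the interferon effector list, -2.13, was -1.55 with a mean of at least 2, -1.72 with 1 RPKM added and -1.49 in control libraries alone. Leaving out 1 library gave 110 to 172 higher genes, 280 to 311 lower genes and medians from -2.33 to -1.99. Centring, quantile normalisation and removal of length and GC trends moved none of these 3 by more than the spread or 1.5 times. The number of genes changed between treatments, 0, was 6831 with arrayWeights, 383 at an unadjusted p of 0.05, and 0 to 0 with each library left out.

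In AngII libraries alone 12 of 37 list medians took the other sign, among them macrophage markers (0.03 to -0.85), endothelium (0.03 to -0.80), immediate early genes (-0.07 to 0.58), complex I (0.08 to -0.50) and complexes II to V (0.17 to -0.29), and glycolysis and hypoxia went from -0.11 to 0.16. The median of the cardiomyocyte markers, 0.19, was 0.00 there. These values compare S8 with S5 only. S5 stood apart from its set for complex I, complexes II to V, immediate early genes and cardiomyocyte markers. With a mean of at least 2, 3 medians changed sign, among them the epicardial markers (0.30 to -0.093), and in control libraries alone 1 did. With 1 library left out 7 lists changed sign at least once, each with a median between -0.07 and 0.03, among them immediate early genes (0.11 without S2) and endothelium (-0.23 without S13). Of the 109 named genes 7 changed sign in AngII libraries alone, among them Trib3 (-0.94 to 0.076) and Egln3 (-0.52 to 0.58), and 4 in control libraries alone. Myh6 was the 1 named gene that did so with a library left out. No paired analysis was possible because the labels give no replicate numbers, and those used here follow accession order and serve only as names. Depth is unknown, so no counting limit can be given.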
